A study of Mus musculus with 4 samples.

Results

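Collagens are the main structural proteins of the extracellular matrix, and mesenchymal stem cells (MSCs) and the bone and connective tissue cells derived from them are among their chief producers. The family falls into classes by the structures its chains build. Fibrillar collagens form banded fibrils, FACIT collagens decorate the fibril surface, type IV chains form the network of basement membranes and type VI chains form beaded microfilaments around cells. Type VIII chains form hexagonal lattices, type VII anchors basement membranes, multiplexins sit in vascular and epithelial basement membranes, and the transmembrane collagens remain attached to the cell that makes them. Col1a1, Col1a2, Col2a1 and Col10a1, the chains used as markers of bone and cartilage, were left aside, and every other collagen gene of the mouse annotation was followed at its accessible sites.

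Open chromatin was profiled by ATAC-seq, which marks DNA that the transposase Tn5 can reach. A collagen peak was any accessible site that overlapped the body, or the 5 kb upstream, of a protein-coding gene of GENCODE release M21 with a collagen chain symbol other than those 4. The rule gave 40 genes, all of them with at least 1 peak, and 522 of the 128055 peaks of the table, with 5 peaks shared by 2 neighbouring collagen genes. Of these, 48 were promoter peaks, lying within 1 kb of an annotated start site of the gene, 466 were intragenic and 8 lay upstream.

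The 4 libraries came from MSCs of the hind-limb bones of young mice aged 3 to 5 months (C57BL/6N males by the study's methods, wild type, no drug), which the labels name Bone-marrow MSCs. The comparison was of 2 libraries against 2, from cells kept at 2% O2 (hypoxia) and cells moved to 21% O2 (normoxia). The methods state that cells grew out of bone under hypoxia, were sorted as Sca-1+ and CD140a+ cells without the blood markers CD45 and TER-119, and were then split between both oxygen levels for a week, whereas the labels describe culture at either oxygen level with the sort at its end. Whether both groups shared the outgrowth under hypoxia is thus not settled by these sources, and cultured cells are a model of the tissue's MSCs. The study calls the 2 libraries of a group independent experiments, but nothing tied a library to particular animals.

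Library totals ranged from 26680936 to 29965523 reads. The share of each total that fell in nuclear peaks was 49.2% and 53.2% in the hypoxia libraries but 31.0% and 35.2% in the normoxia libraries, and the share in mitochondrial peaks was 7.77% and 9.13% against 1.5% and 2.34%, so both shares moved with the oxygen level and their part in the results below was not tested. Of 10 mesenchymal marker genes 9 had a promoter peak (all but Lepr), against 3 of 8 blood markers and none at Ptprc, which encodes CD45. The summed promoter signal of the mesenchymal markers was 1650 and 1696 in hypoxia against 888 and 983 in normoxia, and that of the blood markers 85.6 and 87.7 against 46.5 and 65.1. Endothelial markers had a promoter peak at 3 of 6 genes, epithelial markers at 2 of 4 and skeletal muscle markers at 1 of 3.

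A value given below as signal is the deposited one, taken as the reads of a peak per 10000000 reads of the library. It was not divided by the width of the peak, so peaks of different width are compared here only per kb. Fold changes are log2, normoxia over hypoxia, from limma on log2(value + 1) after RLE scaling, a method that centres the bulk of the peaks on no change, and a peak is called at a false discovery rate (FDR) under 0.01 over all 128055 peaks.

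The elements that carry the results are shown first. The intronic peaks of Col26a1 (chr5:136784101-136785300) and Col28a1 (chr6:8171901-8174700) lost signal in normoxia and were called under each of 4 other scalings, and intron 1 of Col8a1, a type VIII network chain, held both a peak that fell (chr16:57714701-57716300) and a peak that rose (chr16:57685201-57687400). Their central 300 bp are given on the plus strand of GRCm38. The 250 bases before the RefSeq start site follow for Col11a1 and Col5a3, the fibrillar genes with a called promoter, and for Col3a1, a major fibrillar chain whose promoter was not called, each on the strand of the gene. Capitals mark matches, on either strand, to AP-1 (TGACTCA or TGAGTCA), TEAD (GGAATG), RUNX (TGTGGT), the hypoxia response core (ACGTG), the GC box (GGGCGG), the CCAAT box (CCAAT) or the TATA box (TATAAA), and no marked matches overlapped.
Col26a1 intron 3, lower, chr5:136784551-136784850: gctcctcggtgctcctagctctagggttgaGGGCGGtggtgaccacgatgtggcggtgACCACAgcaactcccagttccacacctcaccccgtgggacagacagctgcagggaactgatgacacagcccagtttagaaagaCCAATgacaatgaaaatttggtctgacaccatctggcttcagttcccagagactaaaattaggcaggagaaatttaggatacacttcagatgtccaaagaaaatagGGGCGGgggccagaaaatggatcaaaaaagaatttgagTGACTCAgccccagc
Col28a1 intron 3, lower, chr6:8173151-8173450: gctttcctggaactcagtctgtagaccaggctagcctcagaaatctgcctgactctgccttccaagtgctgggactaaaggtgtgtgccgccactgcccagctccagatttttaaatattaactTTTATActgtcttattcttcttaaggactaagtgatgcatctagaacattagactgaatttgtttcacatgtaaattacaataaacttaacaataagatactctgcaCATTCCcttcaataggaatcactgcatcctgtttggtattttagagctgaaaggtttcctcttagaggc
Col8a1 intron 1, lower, chr16:57715351-57715650: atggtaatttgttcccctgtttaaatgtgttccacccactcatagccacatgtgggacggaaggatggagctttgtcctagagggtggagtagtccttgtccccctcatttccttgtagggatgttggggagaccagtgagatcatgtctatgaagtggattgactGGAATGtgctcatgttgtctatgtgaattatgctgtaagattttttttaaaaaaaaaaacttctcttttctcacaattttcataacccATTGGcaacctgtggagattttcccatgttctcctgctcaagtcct
Col8a1 intron 1, higher, chr16:57686151-57686450: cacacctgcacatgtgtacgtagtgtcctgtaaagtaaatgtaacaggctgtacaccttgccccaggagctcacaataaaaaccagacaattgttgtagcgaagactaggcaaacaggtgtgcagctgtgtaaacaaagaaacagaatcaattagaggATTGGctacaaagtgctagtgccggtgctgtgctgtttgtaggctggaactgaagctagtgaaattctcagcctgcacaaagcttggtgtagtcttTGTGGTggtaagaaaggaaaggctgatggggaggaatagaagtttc
Col11a1 promoter, lower, chr3:114030290-114030539: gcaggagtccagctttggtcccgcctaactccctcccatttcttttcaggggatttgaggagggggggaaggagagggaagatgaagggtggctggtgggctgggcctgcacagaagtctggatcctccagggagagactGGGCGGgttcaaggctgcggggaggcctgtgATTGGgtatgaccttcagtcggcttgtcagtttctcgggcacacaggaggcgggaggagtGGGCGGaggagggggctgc
Col5a3 promoter, lower, chr9:20815068-20815317, minus strand: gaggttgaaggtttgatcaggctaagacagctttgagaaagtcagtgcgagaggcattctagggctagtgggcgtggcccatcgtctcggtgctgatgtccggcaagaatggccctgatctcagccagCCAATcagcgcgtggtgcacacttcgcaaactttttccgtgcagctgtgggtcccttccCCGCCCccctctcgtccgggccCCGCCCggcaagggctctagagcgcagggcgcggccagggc
Col3a1 promoter, not called, chr1:45311288-45311537: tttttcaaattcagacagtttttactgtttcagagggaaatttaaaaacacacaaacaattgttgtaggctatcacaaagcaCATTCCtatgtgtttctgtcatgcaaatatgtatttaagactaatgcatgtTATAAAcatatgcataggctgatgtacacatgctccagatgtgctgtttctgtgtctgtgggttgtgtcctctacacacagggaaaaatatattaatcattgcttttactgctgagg

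The Col26a1 element held an AP-1 match, 2 GC boxes, a RUNX match and a CCAAT box, and the Col28a1 element a TEAD match and a TATA box, with 50.0% of its bases repeat-masked. The promoters of Col11a1 and Col5a3 each held 2 GC boxes and a CCAAT box at GC contents of 62.4% and 62.8%, whereas that of Col3a1 held a TATA box and a TEAD match at 35.2% GC and no GC box. GC boxes were in 20 of the 33 collagen promoters found in RefSeq (60.6%) and in 32.7% of all 32851 RefSeq promoters of this length. In the central 300 bp of the promoter peaks the order was the opposite, with a GC box in 10 of 48 collagen peaks (20.8%) and in 36.4% of all promoter peaks. The hypoxia response core was in 4 of the 33 (12.1%) against 16.6% of all promoters. These matches describe the letters of the windows only.

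Across the whole family, few peaks passed the test. Of the 522 collagen peaks 18 were called lower in normoxia (3.45%) and 9 higher (1.72%), where 4.57% and 1.77% of all peaks were called lower and higher. The collagen shares were thus near the background of the table. Their median log2 fold change was -0.04 (all peaks -0.00), and 82 were lower (15.7%, all peaks 16.8%) and 54 higher (10.3%, all peaks 12.5%) at an unadjusted p under 0.05. In 162 peaks (31.0%, all peaks 29.6%) both scaled normoxia values lay below both hypoxia values, and in 129 (24.7%, all peaks 27.4%) both lay above. As deposited, before that scaling, 327 lay below (62.6%, all peaks 59.5%) and 28 above (5.36%, all peaks 6.94%). The called peaks belonged to 18 of the 40 genes. A site open in fewer cells and a site less open in each cell cannot be told apart in such bulk libraries.

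**Figure D1:**
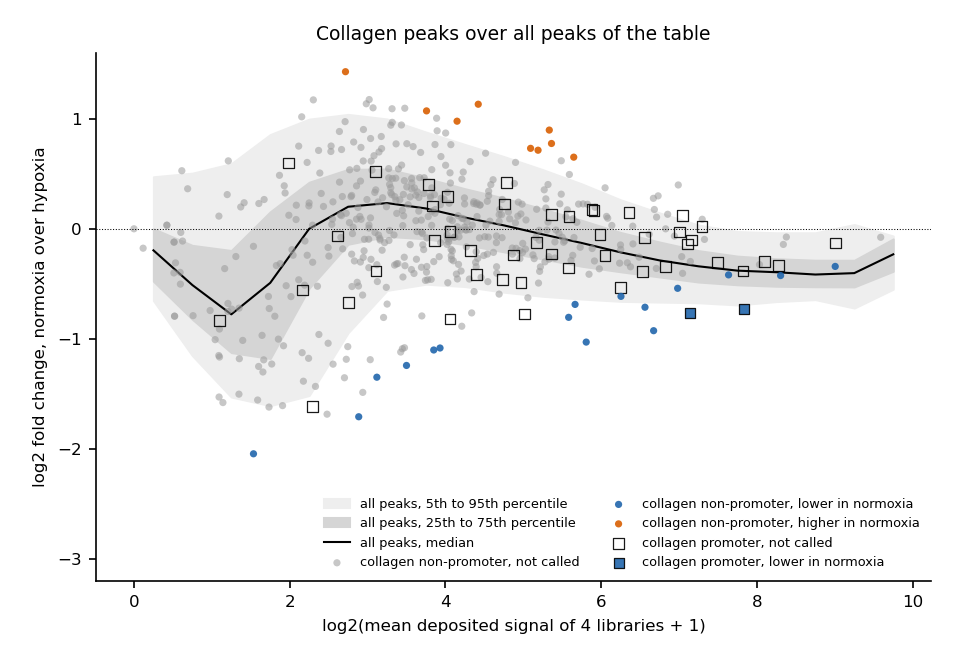
Log2 fold change (normoxia over hypoxia) of each of the 522 collagen peaks against its mean deposited signal on a log2 axis, over the median and percentile bands of all 128055 peaks. Most collagen peaks lie within the bands of all peaks, whose median falls below 0 at high signal, and the 27 called peaks (18 lower, 2 of them promoters) lie outside the inner band except for Col3a1 exon 51, Col15a1 exon 38 and Col27a1 exon 37 at high signal.

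The direction of the calls depended on how the libraries were put on a common scale. With RLE scaling 66.7% of the called collagen peaks were lower. With the values as deposited all 115 called peaks were lower (22%, all peaks 24%) and none was higher (all peaks 0.391%). With equal totals over peaks, mitochondrial peaks included, 6 were lower (1.15%, all peaks 0.837%) and 32 higher (6.13%, all peaks 6.84%). The whole table shifted in the same way, with a median over all peaks of -0.44 as deposited and 0.26 with equal totals. Quantile normalization gave 4 lower (0.766%, all peaks 0.72%) and 6 higher (1.15%, all peaks 0.905%). Cyclic loess gave 13 of each (2.49%, all peaks 1.31% lower and 1.42% higher). Every call in the table was lost without either hypoxia library, and also when limma was run without trend and robust. Without the first normoxia library the median log2 fold change of the collagen peaks was -0.048 (all peaks -0.0022). Without the second it was -0.026 (all peaks 0.00071).

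Promoters of the family carried less signal in normoxia as deposited. The signal summed over the 48 promoter peaks was 4727 and 4687 in hypoxia against 2788 and 2988 in normoxia, a ratio of 0.614 (log2 -0.70), and over the 474 other peaks 13922 and 15287 against 9527 and 10478, a ratio of 0.685 (log2 -0.55). Neither pair of groups overlapped, and the exact two-sided permutation test gave p = 0.333 for each, the smallest that 2 libraries against 2 allow. After RLE scaling the log2 ratios were -0.23 and -0.07, and with equal totals over peaks they turned to 0.06 and 0.22. Those totals included the mitochondrial peaks, and totals over nuclear peaks alone were not tried. All nuclear peaks together held 49.2% and 53.2% of the reads in hypoxia against 31.0% and 35.2% in normoxia. Within a library, the median promoter peak exceeded the median of the other peaks by 1.77 and 1.75 on the log2(value + 1) scale in hypoxia and by 1.52 in both normoxia libraries (difference -0.24, exact permutation p = 0.333), and with quantile normalization this difference was 0.05.

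Peak by peak, 2 of the 48 collagen promoters were called lower (4.17%) and none higher, against 16.7% and 0.442% of all promoter peaks of the table. Shares of all promoters were not taken at other thresholds, by other methods or with a library left out, so the counts that follow have no background. At an unadjusted p under 0.05, 15 were lower and none higher. With edgeR on the recovered reads 5 were called lower, and limma called none without either hypoxia library, 5 without the first normoxia library and 8 without the second. Fold changes were negative at 34 and positive at 14, with a median of -0.17 (all promoters -0.27). The median depended on signal, and against all promoters of like signal it was lower for weak and less negative for strong peaks. It was -0.47 against -0.30 below a signal of 10 (8 promoters) and -0.13 against -0.05 from 10 to 50 (19 promoters). It was -0.09 against -0.32 from 50 to 200 (16 promoters) and -0.33 against -0.41 above (5 promoters). The scaled normoxia values lay below both hypoxia values in 27 promoters (56.3%, all promoters 60.3%) and above both in 9 (18.8%, all promoters 10.3%), and as deposited 40 lay below (83.3%, all promoters 86.1%) and none above (all promoters 1.74%). No promoter peak was found for Col22a1, a FACIT chain of tissue junctions, Col17a1, a transmembrane collagen of epithelial hemidesmosomes, or Col28a1.

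Both called promoters belonged to minor fibrillar chains. Col11a1 encodes the type XI chain that helps set the diameter of cartilage fibrils, and its promoter peak (chr3:114029501-114033100) had a signal of 182 and 212 in hypoxia against 81.3 and 83.8 in normoxia (197 ± 21.4 against 82.5 ± 1.72, SD, n = 2). Both normoxia values were less than the lower hypoxia value by a wide margin (log2 fold change -0.76, SE 0.12, limma FDR 8.75e-05). Col5a3 encodes a type V chain of fibrils in adult connective tissue, and its promoter (chr9:20809801-20815700) had a signal of 322 and 310 in hypoxia against 133 and 140 in normoxia (316 ± 8.46 against 137 ± 5.53, log2 fold change -0.73, SE 0.11, limma FDR 3.85e-05). They were also the densest collagen promoters, with a mean of 38.8 reads per 10000000 and per kb of peak at Col11a1 and 38.4 at Col5a3, where the median collagen promoter had 14.7 and the median of all promoters was 24. Under the 4 other scalings Col11a1 was called in 3 (not with quantile normalization) and Col5a3 in 2.

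**Figure D2:**
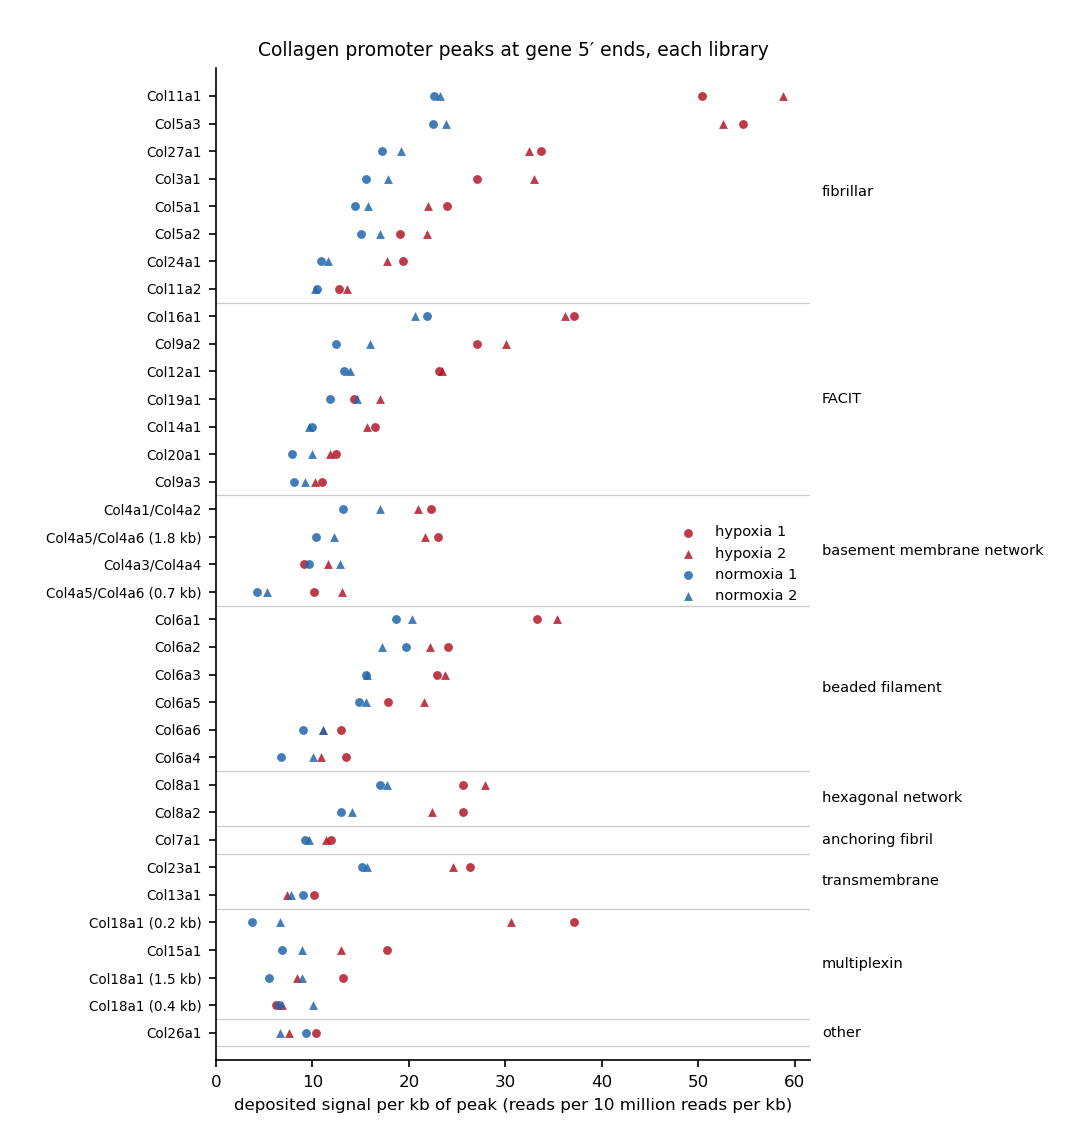
Deposited signal per kb of peak in each of the 4 libraries for the collagen promoter peaks at gene 5′ ends, grouped by class and ordered by mean within it (circles, first library of a group, triangles, second). Col11a1 and Col5a3 stand at the top in hypoxia, above 50 in both libraries, and between 22.5 and 23.8 in normoxia, while most other promoters lie closer together.

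The promoters of Col3a1, Col5a1 and Col5a2 did not pass the test. At Col3a1, the chain of type III collagen, the signal was 54.1 and 66.0 in hypoxia against 31.1 and 35.7 in normoxia (log2 fold change -0.36, SE 0.16, limma FDR 0.138). At Col5a1, whose product nucleates fibrils and whose promoter peak was 27 kb wide, it was 648 and 593 against 389 and 424 (log2 fold change -0.13, FDR 0.353). At Col5a2, its partner chain, it was 137 and 158 against 108 and 122 (log2 fold change 0.12, FDR 0.541). The deposited values of all 3 were lower in both normoxia libraries than in either hypoxia library, and after scaling those of Col5a2 lay above. Col27a1 had a promoter log2 fold change of -0.38 (FDR 0.0135), just outside the threshold, and Col24a1 and Col11a2 had -0.24 and 0.13. Cyclic loess turned Col5a1 to 0.38, past the threshold in the other direction.

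Among the fibril-associated and beaded filament collagens no promoter was called. Col12a1, a FACIT collagen of tendon and periosteum, had 343 and 346 in hypoxia against 197 and 206 in normoxia (log2 fold change -0.29, FDR 0.0432), and Col14a1, its close relative, 51.0 and 48.6 against 30.7 and 30.0 (-0.23, FDR 0.399). Col9a2, a FACIT chain of cartilage, had 94.8 and 105 against 43.5 and 55.7 (-0.54), with an FDR of 0.0101, just over the threshold. Of the type VI chains, the promoter of Col6a1 had 382 and 407 against 215 and 234 (-0.33, FDR 0.0176), whereas Col6a2 had 93.8 and 86.7 against 76.8 and 67.1 (0.15, FDR 0.525) and Col6a3 had 167 and 173 against 114 and 114 (-0.10, FDR 0.614). The 3 chains that assemble into 1 type VI molecule thus had log2 fold changes between -0.33 and 0.15, none of them called.

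The basement membrane, network and multiplexin promoters were not called either. Col4a1 and Col4a2, the chains of the common type IV network, lie head to head and share a promoter peak (chr8:11311401-11314800), which had 75.7 and 71.1 in hypoxia against 44.6 and 57.7 in normoxia (log2 fold change -0.05, SE 0.15, FDR 0.858). A wider Col4a1 peak at a start site inside the gene, with 14.1 per kb against 18.3 at the shared promoter, had 102 and 120 against 71.2 and 79.4 (-0.08, FDR 0.743). Col8a1 had 159 and 173 against 105 and 110 (-0.14, FDR 0.46). Col15a1, a multiplexin, had 38.9 and 28.6 against 15 and 19.7 (-0.46, FDR 0.148). Col18a1, whose C-terminal fragment is endostatin, had 6 promoter peaks, and the one of highest signal, at an internal start 52.8 kb into the gene, had 41.8 and 45.9 against 13.5 and 24 (-0.77, FDR 0.011), just outside the threshold. Over the promoter peak of highest signal of every gene, the fold changes that were not called ran from -0.77 at Col18a1 to 0.52 at the start shared by Col4a3 and Col4a4. At an FDR under 0.05, 9 promoters were lower and none higher, and the share of all promoters at that threshold was not taken.

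**Figure D3:**
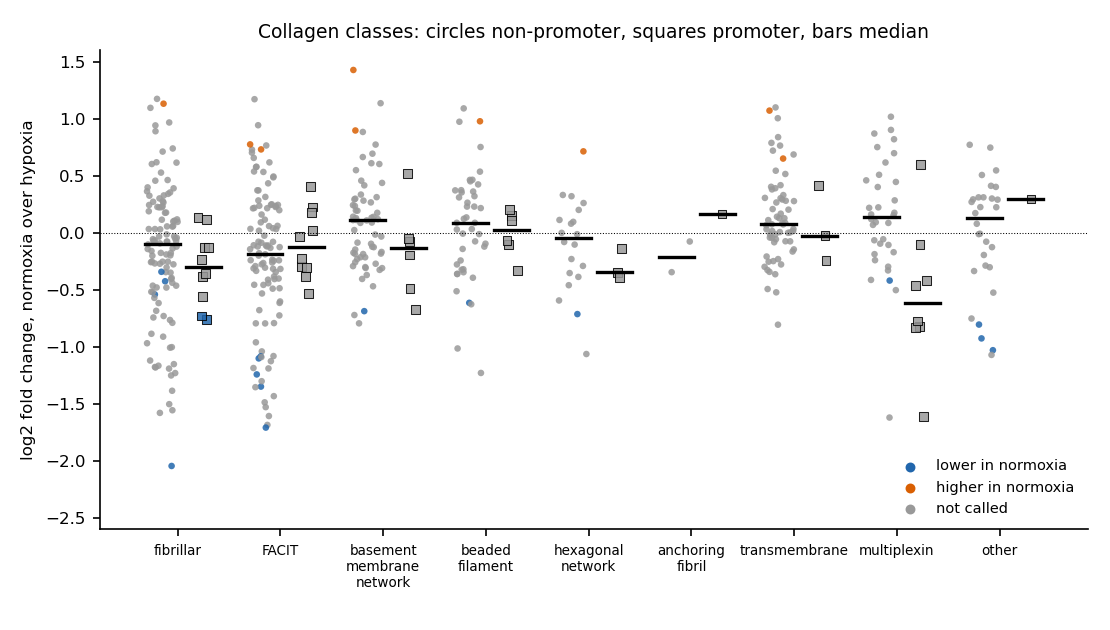
Log2 fold change (normoxia over hypoxia) of every collagen peak by class, circles for non-promoter and squares for promoter peaks, with the median of each as a bar and called peaks in colour. The multiplexin promoters have the lowest median, -0.62 over 8 peaks of 2 genes, and the called peaks are spread over 8 of the 9 groups.

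Away from promoters, 16 peaks were called lower (3.38%) and 9 higher (1.90%), where 2.32% and 1.86% of all intragenic peaks were. By class, promoters included, the calls were 6 lower and 1 higher of 124 peaks in the fibrillar genes, 5 and 2 of 114 in the FACIT genes and 1 and 2 of 69 in the type IV genes. The type VI genes had 1 and 1 of 50, the type VIII genes 1 and 1 of 23, the multiplexins 1 and none of 42, the transmembrane genes none and 2 of 66, and Col26a1 and Col28a1 together 3 and none of 31. The 3 peaks of Col7a1 held no call. The class medians ran from -0.18 in the FACIT genes, or 0.03 without Col12a1, to 0.17 in Col26a1 and Col28a1.

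Col12a1 had the most called peaks of any collagen gene. The summed width of its 57 peaks equalled 75.5% of the gene and the 5 kb upstream, and 46 of them had a negative fold change (median -0.46). Peak names record whether the caller found a peak in both groups or in one, and 24 Col12a1 peaks (42.1%) were assigned to hypoxia only, against 12.3% of all collagen peaks and 6.84% of the table. The share was also high in Col5a1 (33.3%), Col3a1 (31.25%) and Col5a2 (30.3%), whose hypoxia-only peaks had medians of -1.07, -1.25 and -1.06. This assignment comes from the same 4 libraries, so the lower values of hypoxia-only peaks in normoxia are no separate result. All 5 called Col12a1 peaks were among its 24, which were all negative with a median of -1.11. None of its other 33 was called, with 22 negative and a median of -0.14.

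In the peak over exon 11 of Col12a1 (chr9:79696101-79698500) the signal was 19.5 and 23.8 in hypoxia against 6.37 and 7.34 in normoxia (log2 fold change -1.08, SE 0.26, limma FDR 0.0052). The intron 25 peak (chr9:79666001-79668800) had 19.1 and 21.8 against 7.12 and 5.67 (-1.10, SE 0.27, FDR 0.00613). The other 3, over exons 17, 27 and 66, had fold changes between -1.71 and -1.24 and normoxia values between 1.12 and 4.50. No hypoxia-only peak of the gene had a mean signal above 14.2, so these calls rest on few reads. Without the peaks assigned to hypoxia only, 12 collagen peaks were lower and 9 higher, and without Col12a1 altogether 13 of 465 were lower (2.80%).

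**Figure D4:**
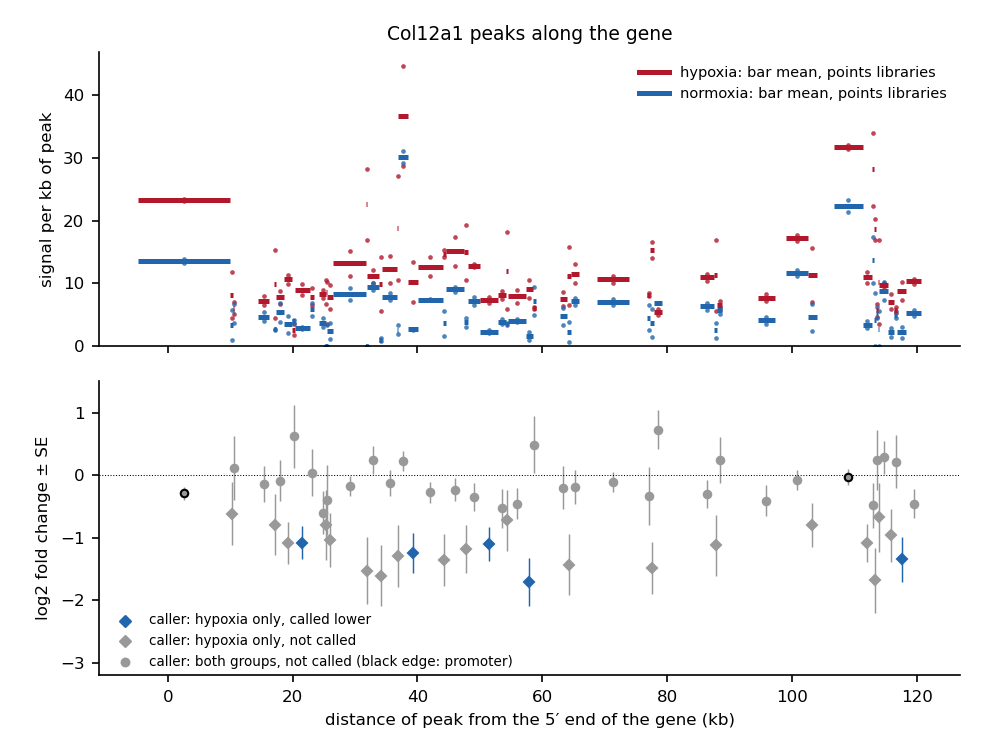
Signal per kb of peak (top, bars for group means over the width of each peak, points for libraries) and log2 fold change with its standard error (bottom) for the 57 Col12a1 peaks by distance from the 5′ end of the gene. Diamonds, the 24 peaks assigned to hypoxia only, lie below 0 and are interleaved with the 33 shared peaks (circles), and the 5 called peaks in blue spread from 21.5 to 118 kb.

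Col3a1 had 16 peaks with a summed width of 31.7 kb, part of it past the 3′ end of the gene. A negative fold change was found at 13 of the 16. These were all 5 peaks assigned to hypoxia only (median -1.25) and 8 of the 11 found in both groups (median -0.34). The share of negative fold changes over all peaks was not taken. Its 3′ end and the following sequence formed a 15.6-kb peak that reached exon 51 (chr1:45348401-45364000), with a signal of 588 and 723 in hypoxia against 349 and 390 in normoxia (log2 fold change -0.34, SE 0.09, FDR 0.00852). It was not called by edgeR, and its direction turned with quantile normalization (0.02) and cyclic loess (0.16). A 300-bp peak in intron 3 (chr1:45322101-45322400) had 8 and 14 reads in hypoxia and none in either normoxia library. The caller assigned it to hypoxia only from these same libraries, so its lower normoxia values are no separate result. Against a floor of 3 reads per library it was at least 2.53-fold lower in normoxia after scaling (limma FDR 0.00652), a bound for counting error only. In all, 7 collagen peaks had no read in either normoxia library, and this was the one of them that was called.

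The lowest FDRs outside promoters were in Col26a1 and Col28a1. In intron 3 of Col26a1, 98.5 kb from the 5′ end, the signal was 82.1 and 81.3 in hypoxia against 26.6 and 30.0 in normoxia (81.7 ± 0.595 against 28.3 ± 2.42, SD, n = 2). The normoxia values were well separated from those of hypoxia (log2 fold change -1.03, SE 0.16, FDR 6.39e-05), while the Col26a1 promoter had 18.8 and 13.6 against 16.9 and 12.0 (0.29, FDR 0.485). In intron 3 of Col28a1, a collagen of the peripheral nerve, the signal was 129 and 165 in hypoxia against 48.7 and 61.4 in normoxia (147 ± 25.3 against 55.1 ± 8.97, log2 fold change -0.93, SE 0.14, FDR 3.64e-05). A second Col28a1 peak reached exon 14 (chr6:8105501-8107500), with 63.3 and 69.7 against 22.9 and 31.7 (-0.80, SE 0.17, FDR 0.00156). The other 18 peaks of the gene were not called, and no promoter peak accompanied these elements.

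Col8a1 was called in both directions within 1 intron. The peak 39.2 kb from the 5′ end had 121 and 140 in hypoxia against 58.8 and 54.4 in normoxia (log2 fold change -0.71, SE 0.14, FDR 0.000613). The peak 68.4 kb from the 5′ end had 28.0 and 37.1 in hypoxia against 37.9 and 39.0 in normoxia (0.71, SE 0.18, FDR 0.00663), where the normoxia values lay above both hypoxia values by a small margin as deposited. The other 17 peaks of the gene, its promoter included, were not called.

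Of the remaining lower peaks, 2 were in Col27a1, a fibrillar collagen of growth plate cartilage. Its peak over exon 37 (chr4:63309001-63312800) had 416 and 405 against 210 and 229 (log2 fold change -0.43, FDR 0.00347) and that over exon 40 (chr4:63314201-63317200) had 162 and 174 against 78.0 and 87.4 (-0.54, FDR 0.0028). With cyclic loess the exon 37 value was 0.01. The type IV and type VI genes contributed Col4a2 intron 4, with 66.9 and 70.7 against 26.2 and 35.0 (-0.69, FDR 0.00449), and a peak at exon 31 of Col6a1, with 95.5 and 110 against 52.5 and 43.4 (-0.61, FDR 0.00503). A peak at exon 38 of Col15a1 had 246 and 269 against 132 and 144 (-0.42, FDR 0.00816, but -0.07 with quantile normalization and -0.06 with cyclic loess). Each of these 5 peaks, like the lower Col8a1 peak and Col3a1 exon 51, was called under 1 of the 4 other scalings, the values as deposited. The 18 lower peaks all had both normoxia values below both hypoxia values as deposited.

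The 9 peaks that rose all had a mean signal under 50, and 7 of them were intronic. Col24a1, a fibrillar collagen of forming bone, had the smallest FDR among the fibrillar non-promoter peaks, in intron 47 (chr3:145504301-145505500), with 13.4 and 17.7 in hypoxia against 25.9 and 24.7 in normoxia (log2 fold change 1.13, SE 0.22, FDR 0.000791). Col4a1 intron 1 (chr8:11287001-11291500) had 30.1 and 36.7 against 42.7 and 47.7 (0.90, SE 0.17, FDR 0.000606), about 24 kb from the promoter it shares with Col4a2, which was not called. Both were called under 3 of the 4 other scalings.

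A pair of peaks rose in Col14a1, whose other 17 peaks were not called. In intron 8 (chr15:55369701-55371100) the signal was 32.2 and 39.4 against 46.1 and 42.7 (log2 fold change 0.78, FDR 0.00245), and in intron 45 (chr15:55510801-55511700) 29.0 and 30.9 against 34.9 and 37.7 (0.73, FDR 0.00571). Col13a1, a transmembrane collagen of the neuromuscular junction, had 8.14 and 11.2 against 15.4 and 15.4 at exon 38 (1.07, FDR 0.00606), and Col6a6 had 14.2 and 12.9 against 19.9 and 20.02 in intron 36 (0.98, FDR 0.00484), each called with equal totals but under no other scaling. The lowest was Col4a4 intron 5, with 2.83 and 3.74 against 6.37 and 9.34 (1.43, FDR 0.00738), also called with equal totals alone. At Col17a1 exon 37 the deposited values overlapped, with 52.0 and 39.8 against 44.6 and 60.1, and separated only after scaling (0.65, FDR 0.00961). No peak that rose was called with the values as deposited.

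**Figure D5:**
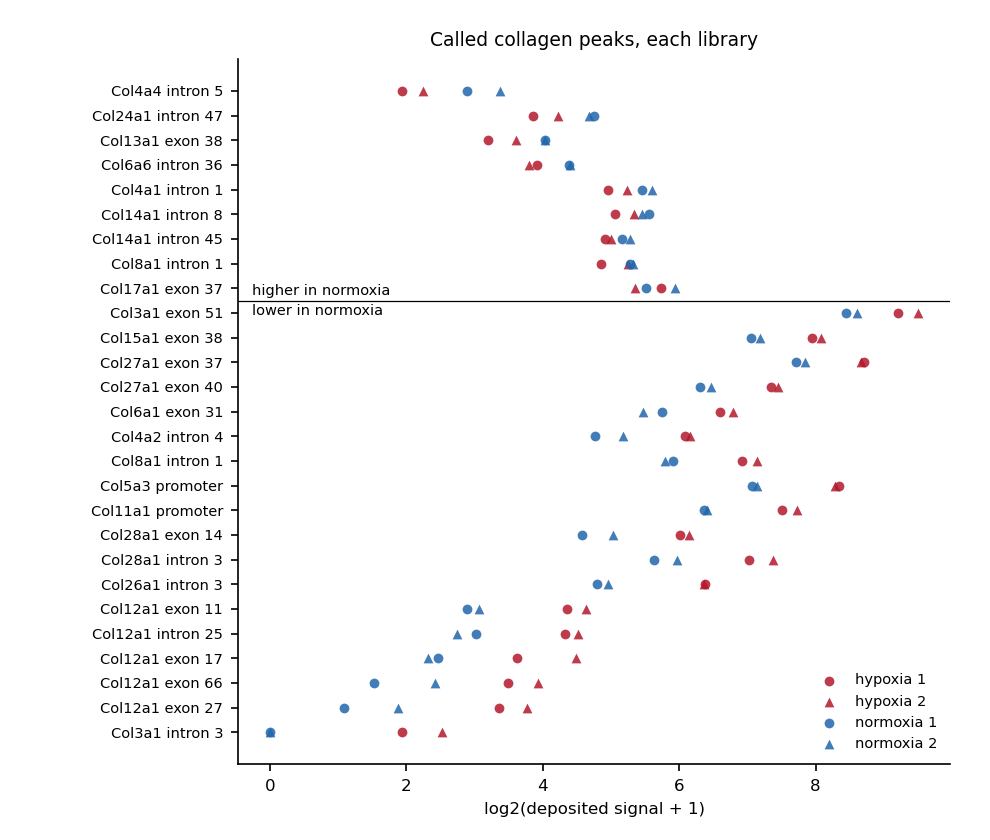
Deposited signal of the 27 called collagen peaks in each library, as log2(value + 1), ordered by fold change, with the 18 lower peaks below the line and the 9 higher above it. In all 18 lower peaks both normoxia values lie to the left of both hypoxia values, and in 8 of the 9 higher peaks (all but Col17a1) to the right, on values that are not RLE scaled.

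The sequence of the called peaks was described on their central 300 bp. The 16 non-promoter peaks that fell had a median GC content of 41.2%, the 9 that rose 45.3% and the 449 not called 45.0%, where the median of all intragenic peaks was 45.7%. The AP-1 sequence was in 78 of the 474 non-promoter collagen windows (16.5%, all intragenic peaks 15.9%), in 1 of the 16 that fell and in none of the 9 that rose. The hypoxia response core was in 5 of the 16 and 2 of the 9, against 53 of the 449 not called (11.8%) and 14.4% of all intragenic windows. The TEAD sequence was in 5 of the 16 and 4 of the 9, against 18.5% of those not called. The RUNX sequence was in 4 and 2 of these sets and in 26.5% of those not called.

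Genes that act with the collagens were listed beside them. The list held the 4 collagens left aside, procollagen proteinases and their enhancers, the chaperone Serpinh1, fibril-binding proteins, collagen receptors and collagenolytic enzymes. Of its 219 peaks at 27 of 28 genes, 29 were called lower (13.2%) and 1 higher (0.457%), against 4.57% and 1.77% of all peaks, with a median of -0.18. The lower calls were at 13 genes, and 8 of the 31 promoter peaks were lower (25.8%, all promoters 16.7%). Over all peaks the share called lower rose with signal, from 1.05% below a signal of 10 to 50.7% above 200. The list was not set against peaks of like signal, and the difference in share between the list and the collagens was not tested.

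By role, Fn1, encoding the fibronectin on which collagen fibrils assemble, held 9 of the lower peaks, its promoter among them, with a signal of 637 and 718 in hypoxia against 315 and 383 in normoxia (log2 fold change -0.48, limma FDR 0.000428). Adamts2, the proteinase that removes the N-propeptide of fibrillar procollagens, held 6, all intronic, with fold changes between -2.04 and -0.47. Of the left-out chains, promoters fell by 0.40 on the log2 scale at Col1a1, by 0.42 at Col1a2 and by 0.77 at Col2a1. The Col2a1 promoter had 230 and 217 in hypoxia against 86.2 and 101 in normoxia. Neither promoter peak of Col10a1 was called (0.20, limma FDR 0.663, and -1.24 in a 200-bp peak, limma FDR 0.0992). Among the receptors, the promoters of Itgb1 (-0.55), Itga1 (-0.55) and Ddr1 (-0.50) and an intron of Ddr2 (-0.42) were lower. Of the enzymes, Mmp14, the membrane-bound collagenase, was lower at its promoter (-0.40), and Mmp2 (-0.60) and Bmp1 (-0.64) each held 1 lower peak. Pcolce2, listed as an enhancer of the proteinases, held 1 lower peak (-2.21) that rests on few reads. It was 300 bp wide, with 7.43 and 13.3 in hypoxia against 1.12 and 0.667 in normoxia. The single higher peak was in intron 15 of Itga2 (1.22, FDR 0.00483), with 7.43 and 6.12 against 11.6 and 13.3. The count of 29 lower peaks was 12 with equal totals over peaks, 8 with quantile normalization, 13 with cyclic loess and 0 without either hypoxia library, and the higher call was lost without any 1 library.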

How the data were processed

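ATAC-seq signal was analysed for 4 mouse MSC libraries, 2 at 2% and 2 at 21% O2, grouped by the labels. The authors used bowtie2 (mm10), Picard to remove duplicates and chromstaR in differential mode to call a single peak set, and deposited a signal per peak and library, named RPKM. Every value (100%) was, within 0.01, a whole multiple of the smallest value above 0 of its library, so the signal was not divided by width. That step was taken as 1 read, and the reads were recovered from it. The scale of 10000000 library reads was assumed, because this check holds at any scale, and the library totals and shares of reads rest on it. The median peak held 43 and 48 reads in hypoxia and 33 and 40 in normoxia, which limits single weak peaks. RLE size factors were 1.13 and 1.23 in hypoxia against 0.81 and 0.89 in normoxia. limma 3.58.1 in R 4.3.3 (trend, robust, two-sided, Benjamini-Hochberg over all peaks) was fitted on log2(value + 1), with edgeR 4.0.16 on the recovered reads as an alternative, beside other scalings, pseudocounts, filters, definitions and left-out libraries. On simulated data for this comparison (128055 peaks), limma recovered 99% of 4-fold and 61% of 2-fold changes with 2 false calls. The changed peaks were drawn from those with a mean signal of 10 or more, with normal noise at limma's own variances. These rates do not cover the 215 collagen peaks of lower signal. Named peaks were the promoter peak of highest mean signal of each gene, in full where called and otherwise with values or by range, a list of further promoters, and the 10 lower and 10 higher non-promoter peaks of lowest p among those called with a mean signal of 10 or more and no overlap after scaling. Genes with the most calls were described over all peaks, with ties kept, and the peaks of Col4a4 intron 5 and Col15a1 exon 38 were named after their values were seen. Members and lists were chosen with earlier results of these data known. Same-numbered libraries of both groups had a correlation of deviations from their group means of 0.01 over all peaks, which cannot settle whether they were paired. Replicates of a group differed by more than sampling noise, with a chi-square per degree of freedom of 1.94 in hypoxia and 1.74 in normoxia, and p-values measure only the spread between these samples. Sequences came from RefSeq GRCm38.p6, with windows centred on each peak.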

Additional observations from a re-analysis of the deposited data

How the results depend on the processing

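The counts moved most with scaling, with the variance model of limma and with either hypoxia library left out. The lower and higher collagen peaks numbered 18 and 9. They were 115 and 0 with the values as deposited, 6 and 32 with equal totals over peaks and 4 lower with quantile normalization. With a pseudocount of 0.1 they were 11 and 5 (2.11% and 0.958%, all peaks 3.35% and 1.20%). By limma without trend and robust they were 0 and 0, as in the whole table. At an unadjusted p under 0.05 that fit had 115 collagen peaks, and 29293 of all 128055. At an FDR under 0.05 the counts were 47 and 28, against 12390 and 6890 of all 128055 peaks. edgeR on the recovered reads gave 15 higher with RLE (2.87%, all peaks 2.54%) and 16 with TMM factors (3.07%, all peaks 2.70%). Leaving out 1 library at a time gave 0 to 26 lower and 0 to 5 higher, and each hypoxia library left out gave 0 calls in the whole table, with 90 and 86 collagen peaks at an unadjusted p under 0.05. The 2 promoters called lower became 22 as deposited, 0 with quantile normalization, 1 with cyclic loess, 4 with a pseudocount of 5, 5 with a minimum mean signal of 5, 0 without trend and robust, 5 and 4 by edgeR with RLE and TMM, 9 at an FDR under 0.05 and 0 to 8 with 1 library left out. The 29 lower partner peaks became 81, 12, 8 and 13 under the values as deposited, equal totals, quantile and loess, 0 without trend and robust, 51 at an FDR under 0.05 and 0 to 35 with 1 library left out. The 1 higher partner peak became 0, 11, 2 and 4 under those 4 scalings, 2 with the minimum of 5 and by edgeR with TMM, 0 without trend and robust, 7 at an FDR under 0.05 and 0 with any 1 library left out.

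With the replicate number as a block, 30 collagen peaks were lower (5.75%, all peaks 6.61%) and 16 higher (3.07%, all peaks 3.05%). In that fit 6 promoters were lower and 2 partner peaks higher. Whether the numbers pair the libraries was not settled.

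The log2 ratio of summed promoter signal, -0.70, was -0.23 after RLE scaling and 0.064 with equal totals, and ranged from -0.76 to -0.66 with 1 library left out. That of the other peaks, -0.55, was -0.067 and 0.22, and ranged from -0.62 to -0.48. The promoter excess difference, -0.24, was -0.23 and -0.26 with pseudocounts of 0.1 and 5, -0.21 after RLE scaling, 0.045 with quantile normalization, -0.12 with a minimum mean of 5, -0.47 with a 2000 bp promoter window and -0.25 to -0.23 with 1 library left out. Changes of the gene boundary, of the peaks over another gene's start and of the promoter window left the counts of lower collagen peaks and promoters within 1.5 times.

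Named peaks that turned direction were mostly promoters that were not called. With equal totals these were Col14a1 (0.056), the internal Col4a1 start (0.21), the Col4a1 and Col4a2 start (0.23), Col5a1 (0.16), Col6a3 (0.19) and Col8a1 (0.15). With quantile normalization they were Col12a1 (0.080), the internal Col4a1 start (0.17), Col4a1 and Col4a2 (0.10), Col5a1 (0.24), Col6a1 (0.029), Col6a3 (0.22), Col8a1 (0.17) and the exon 51 peak of Col3a1 (0.017). With cyclic loess they were Col12a1 (0.12), the internal Col4a1 start (0.16), Col4a1 and Col4a2 (0.11), Col5a1 (0.38), Col6a1 (0.10), Col6a3 (0.21), Col8a1 (0.16), Col27a1 exon 37 (0.0082) and Col3a1 exon 51 (0.16). As deposited, Col5a2 (-0.36) and Col6a2 (-0.32) turned. With 1 library left out, the Col4a1 and Col4a2 start ranged from -0.17 to 0.074 (above 0 without the first hypoxia or the first normoxia library) and Col6a2 from -0.0065 (without the first normoxia library) to 0.31. The cause was not tested.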
